A study of Mus musculus with 48 samples.

Results

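The neurons and glia of the colon wall were followed through 8 genes, *Elavl4*, *Uchl1*, *Nos1*, *Vip*, *Chat*, *Tac1*, *S100b* and *Sox10*, chosen by symbol as markers and transmitter genes of the enteric nervous system. They are 8 of the 55401 genes in the deposited table of read counts, and all 8 passed the filter on low counts. Colon RNA was sequenced from 48 adult male C57BL/6J mice, with 4 mice per genotype and circadian time (6 times in all, CT1, CT5, CT9, CT13, CT17 and CT21). All 48 mice carried floxed *Bmal1* (Bmal1fl/fl). The 24 Bmal1IEC-/- mice also carried Cre recombinase under the Villin promoter, which is active in intestinal epithelial cells, and the 24 controls were littermates without Cre. All were killed on the second day of darkness, so that times were read without a light cue. The neurons and glia themselves keep *Bmal1* in both genotypes, and the comparison asks how their genes stood when epithelial cells had lost it.

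The enteric nervous system lies in ganglia between the muscle layers and under the mucosa and runs gut movement, secretion and local blood flow largely without the brain. Its motor neurons fall into an inhibitory class, which relaxes muscle through nitric oxide and vasoactive intestinal peptide, and an excitatory class, which contracts it through acetylcholine and tachykinins. Enteric glia surround the neurons, and both come from the neural crest.

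One RefSeq promoter window each is shown for *Vip*, the gene with the largest genotype difference, and for *Tac1* and *Chat*, the 2 of these genes whose window holds CACGTG, the E-box to which BMAL1 binds together with CLOCK. Each window has 300 bases, 250 before and 50 after the start of a transcript, in GRCm38.p6 coordinates, read along the strand of the gene. Capitals mark the E-box and the core of the cAMP response element, which is TGACG on either strand and so can also stand in the line as its reverse complement.
Vip, chr10:5638968-5639267, plus strand: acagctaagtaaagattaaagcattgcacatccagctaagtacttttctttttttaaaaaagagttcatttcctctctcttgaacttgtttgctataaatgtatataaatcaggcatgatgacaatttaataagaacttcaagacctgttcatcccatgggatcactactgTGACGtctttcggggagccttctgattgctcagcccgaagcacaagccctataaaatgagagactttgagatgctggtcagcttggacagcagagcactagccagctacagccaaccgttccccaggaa
Tac1, chr6:7554811-7555110, plus strand: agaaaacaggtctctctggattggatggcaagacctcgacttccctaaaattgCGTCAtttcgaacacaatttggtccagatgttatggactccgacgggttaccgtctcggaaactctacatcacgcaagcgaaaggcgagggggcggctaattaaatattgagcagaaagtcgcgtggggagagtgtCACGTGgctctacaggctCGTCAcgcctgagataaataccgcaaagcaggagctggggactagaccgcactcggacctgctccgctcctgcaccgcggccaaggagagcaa
Chat, chr14:32465860-32466159, minus strand: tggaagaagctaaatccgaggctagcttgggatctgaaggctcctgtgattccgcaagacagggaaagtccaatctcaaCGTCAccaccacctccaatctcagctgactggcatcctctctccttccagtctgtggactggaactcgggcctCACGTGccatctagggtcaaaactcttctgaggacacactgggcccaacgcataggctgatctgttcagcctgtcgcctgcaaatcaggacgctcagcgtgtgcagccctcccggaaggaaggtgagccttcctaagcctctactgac

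CACGTG stood 98 bases before the start in *Chat* and 61 bases before it in *Tac1*. Of all 32851 mouse windows, 7.15% held the E-box. The core of the cAMP element stood 79 bases before the start in *Vip*, 171 in *Chat* and 197 and 43 in *Tac1*, windows of *Elavl4* and *Nos1* held it too, and so did 20.8% of all windows, both strands searched. The matches of the E-box and of the cAMP element shared no base in these windows. Windows were at hand for 7 of the 8 genes, and a match of letters shows no binding.

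Libraries held 3144997 to 4785844 counted reads, and the medians were 3775926 for control and 3891600 for Bmal1IEC-/- mice. Levels are given in CPM, the count of a gene relative to its library size, which was scaled with the trimmed mean of M-values (TMM). A floor of 3 counts stood at 0.627 to 0.954 CPM and covers counting error only. *Arntl*, the symbol under which *Bmal1* is listed, swung in control mice from 6.86 ± 2.28 CPM (SD, n = 4) at CT9 to 67.5 ± 4.5 CPM (SD, n = 4) at CT1. In Bmal1IEC-/- colon its means ran only from 29.6 ± 8.0 CPM (SD, n = 4) at CT9 to 36.3 ± 11.3 CPM (SD, n = 4) at CT1. They were thus above control at CT9 and below it at CT1, with a log2 fold change of 0.22 over all times (adjusted p = 0.499, edgeR). Cells outside the epithelium keep the gene, and their part in this level was not tested. *Nr1d1*, a direct target of BMAL1, fell by 1.56 in log2 (adjusted p = 3.71e-12, edgeR). The Bmal1IEC-/- mouse SV385 at CT1 stood apart. Its 10 smooth muscle markers summed to 964 CPM, against 3456 to 6079 CPM in the other 47 mice, and its 8 epithelium markers to 15578 CPM, against 8165 to 12253 CPM. Results are also given over 46 mice, without SV385 and SV384. SV384 was Bmal1IEC-/- at CT1 as well and its muscle sum of 3670.1 CPM lay within that range. Its *Vip* level of 122 CPM was the highest of the Bmal1IEC-/- mice, so that leaving it out lowers their *Vip* level. Which mice the study itself left out was not checked here.

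Per kilobase of exon, *Vip* was the most abundant of the 8 transcripts in control mice at 29.4 ± 5.63 CPM (SD, n = 24). *Uchl1* followed at 11.5 ± 2.36 and *Tac1* at 5.91 ± 0.684 CPM per kilobase, and these 3 kept their order in 24 of 24 control mice. *S100b* at 2.92 ± 0.775 and *Nos1* at 2.52 ± 0.481 CPM per kilobase did not differ beyond their spread, with *S100b* the higher in 15 of 24 mice. *Sox10* at 1.49 ± 0.586 and *Elavl4* at 1.42 ± 0.334 CPM per kilobase did not either, and *Sox10* was the higher in 11 of 24. *Chat* was lowest at 0.405 ± 0.161 CPM per kilobase (SD, n = 24). The order of the means was the same in Bmal1IEC-/- mice. The counts behind these levels were 2 to 15 per mouse for *Chat*, 5 to 27 for *S100b* and 5 to 29 for *Sox10*, against 96 to 554 for *Vip*.

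*Vip* and *S100b* were lower in Bmal1IEC-/- mice past an adjusted p of 0.05, and the other 6 genes did not pass. Of the 8 genes 5 had an unadjusted p under 0.05 in edgeR, *Elavl4*, *Uchl1* and *Nos1* beside these 2. The share of all genes with such an unadjusted p is not given here. Across all 14618 genes tested with edgeR's quasi-likelihood test, 11.7% passed and 5.42% passed as lower in Bmal1IEC-/- mice, beside 2 of these 8. The log2 fold change was below 0 for 8 of 8 genes, with a median of -0.19, and for 49.8% of all genes. Every tested smooth muscle, immune, and fibroblast and endothelium marker was also below 0, with list medians of -0.23, -0.13 and -0.13. So was every adipocyte marker, with a median of -0.66. The medians of epithelium, tuft and enteroendocrine markers lay above 0. None of the 8 reached a fold of 1.5 together with the adjusted p, which 1.32% of all genes did. In bulk tissue, fewer cells of a type and less RNA per cell cannot be told apart.

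**Figure D1:**
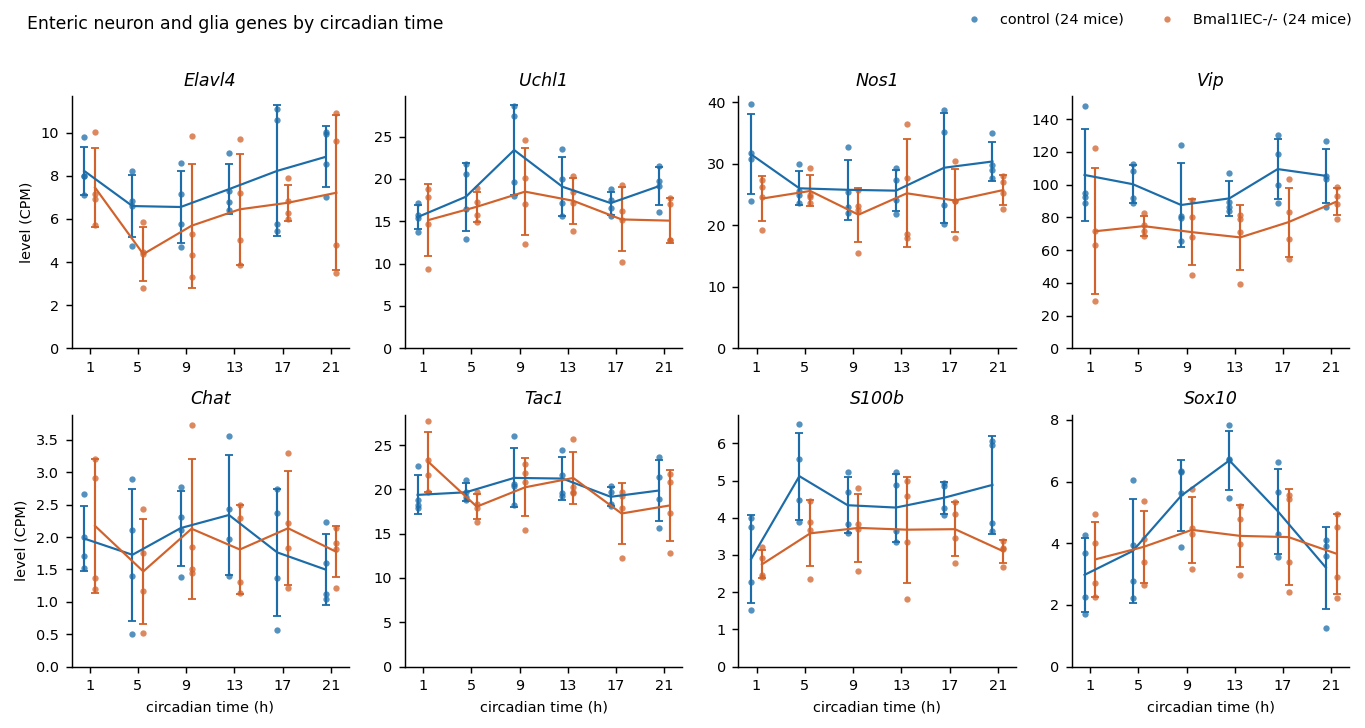
Level in CPM (vertical axes, from 0) of the 8 genes in each mouse against circadian time in hours, blue for the 24 control and orange for the 24 Bmal1IEC-/- mice, with lines and bars for the mean ± SD of 4 mice. *Vip* and *S100b* means were lower in Bmal1IEC-/- mice at 6 of 6 times, and *Sox10* in control mice was highest at CT13.

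Of the genes used by neurons of all classes, *Elavl4* encodes a neuronal RNA-binding protein and *Uchl1* a ubiquitin hydrolase that serves as a general neuron marker. *Elavl4* (ENSMUSG00000028546, chromosome 4, 110203722 to 110351909, GRCm38) ran from 4.68 to 11.1 CPM with a median of 7.24 in control mice and from 2.80 to 10.9 CPM with a median of 5.91 in Bmal1IEC-/- mice. The ranges overlapped, and 7 of 24 Bmal1IEC-/- mice were below the lowest control. Its log2 fold change was -0.28, with a standard error (SE) of 0.12 and an adjusted p of 0.117 in edgeR's quasi-likelihood test. With single mice left out it passed only without the Bmal1IEC-/- mouse SV400 (adjusted p = 0.0483).

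*Uchl1* (ENSMUSG00000029223, chromosome 5, 66676091 to 66687234) ran from 12.9 to 28.6 CPM with a median of 17.8 in control mice and from 9.32 to 24.6 CPM with a median of 17.1 in Bmal1IEC-/- mice, 5 of which were below the lowest control. Its log2 fold change was -0.19 (SE 0.08, adjusted p = 0.108, edgeR). The antisense gene *Uchl1os* shares 295 bases with its exons, 18.1% of them, and was itself listed with 3 reads over all mice. The strand setting of the counting is not given in the sources used here.

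The inhibitory side held the largest difference. *Vip* (ENSMUSG00000019772, chromosome 10, 5639218 to 5647617) encodes vasoactive intestinal peptide, which relaxes smooth muscle and drives secretion. It ran from 65.5 to 148 CPM with a median of 93.5 in control mice and from 28.9 to 122 CPM with a median of 77.2 in Bmal1IEC-/- mice. The ranges overlapped, but 21 of 24 Bmal1IEC-/- mice were below the control median and 5 were below the lowest control. *Vip* fell by 0.41 in log2 (SE 0.10, adjusted p = 0.00442, edgeR), a fold of 0.752 with a 95% interval of 0.656 to 0.862. It passed with each single mouse left out, with adjusted p from 0.000949 to 0.00869, and over the 46 mice (adjusted p = 0.000681).

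*Nos1* (ENSMUSG00000029361, chromosome 5, 117781032 to 117958840) encodes the nitric oxide synthase of neurons. It ran from 20.3 to 39.8 CPM with a median of 27.5 in control mice and from 15.5 to 36.6 CPM with a median of 24.6 in Bmal1IEC-/- mice, and 19 of the latter were below the control median. Its log2 fold change was -0.20 (SE 0.08, adjusted p = 0.0734, edgeR). *Nos1* passed when the control mouse SV453 or the Bmal1IEC-/- mouse SV448 was left out, with an adjusted p as low as 0.0200, and without CT13 (adjusted p = 0.0461).

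Neither excitatory gene passed, and whether they differed less than the inhibitory genes was not tested. *Tac1* (ENSMUSG00000061762, chromosome 6, 7554879 to 7565834) encodes the precursor of substance P and neurokinin A. It ran from 15.6 to 26.0 CPM with a median of 19.6 in control mice and from 12.2 to 27.7 CPM with a median of 19.7 in Bmal1IEC-/- mice, so that the medians nearly coincided. The fold was 0.974 with a 95% interval of 0.894 to 1.06 (adjusted p = 0.751, edgeR). *Chat* (ENSMUSG00000021919, chromosome 14, 32408203 to 32465989) encodes choline acetyltransferase, which makes acetylcholine. It ran from 0.507 to 3.57 CPM with a median of 1.98 in control mice and from 0.523 to 3.73 CPM with a median of 1.82 in Bmal1IEC-/- mice. The fold was 0.993 with a 95% interval of 0.785 to 1.26 (adjusted p = 0.982, edgeR), and at 2 to 15 counts per mouse a difference inside it was not detectable.

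Of the glial genes, *S100b* encodes a calcium-binding protein and *Sox10* a transcription factor of the neural crest and of glia. *S100b* (ENSMUSG00000033208, chromosome 10, 76253853 to 76261159) ran from 1.53 to 6.52 CPM with a median of 4.18 in control mice and from 1.82 to 4.98 CPM with a median of 3.36 in Bmal1IEC-/- mice. The ranges overlapped, with 19 of 24 Bmal1IEC-/- mice below the control median and 0 below the lowest control. It fell by 0.34 in log2 (SE 0.11, adjusted p = 0.0340, edgeR), a fold of 0.791 with a 95% interval of 0.681 to 0.918. The call lay near its threshold: it was lost without any 1 of the 9 mice SV412, SV416, SV418, SV433, SV441, SV443, SV450, SV468 and SV478 (adjusted p up to 0.0559) and without a filter on low counts (adjusted p = 0.128). *Sox10* (ENSMUSG00000033006, chromosome 15, 79154908 to 79165240) ran from 1.24 to 7.84 CPM with a median of 4.18 in control mice and from 2.23 to 5.77 CPM with a median of 4.07 in Bmal1IEC-/- mice. Its log2 fold change was -0.15 (SE 0.13, adjusted p = 0.502, edgeR).

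The summed level of 10 smooth muscle markers was also compared, none of which passed for genotype (9 with an unadjusted p under 0.05). It ran from 3872 to 6079 CPM with a median of 5138 in control mice and from 964 to 5633 CPM with a median of 4396 in Bmal1IEC-/- mice, and none of the 10 was at 0 in all mice. With the log2 of this sum as a covariate, the log2 fold change was -0.28 for *Vip* (adjusted p = 0.0686) and -0.32 for *S100b* (adjusted p = 0.0997), and 0 of the 8 genes passed in edgeR. With the same covariate over the 46 mice, a choice made after seeing the data, *Vip* passed and fell by 0.36 (adjusted p = 0.0139), whereas *S100b* had -0.31 (adjusted p = 0.143) and *Nos1* -0.02 (adjusted p = 0.932). A fit with this covariate that left out SV385 alone was not run. With the mean level of the other enteric neuron genes as covariate, also chosen after seeing the data, *Vip* had -0.30 (adjusted p = 0.0979), *S100b* -0.26 (adjusted p = 0.213) and *Uchl1* 0.00 (adjusted p = 0.991).

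**Figure D2:**
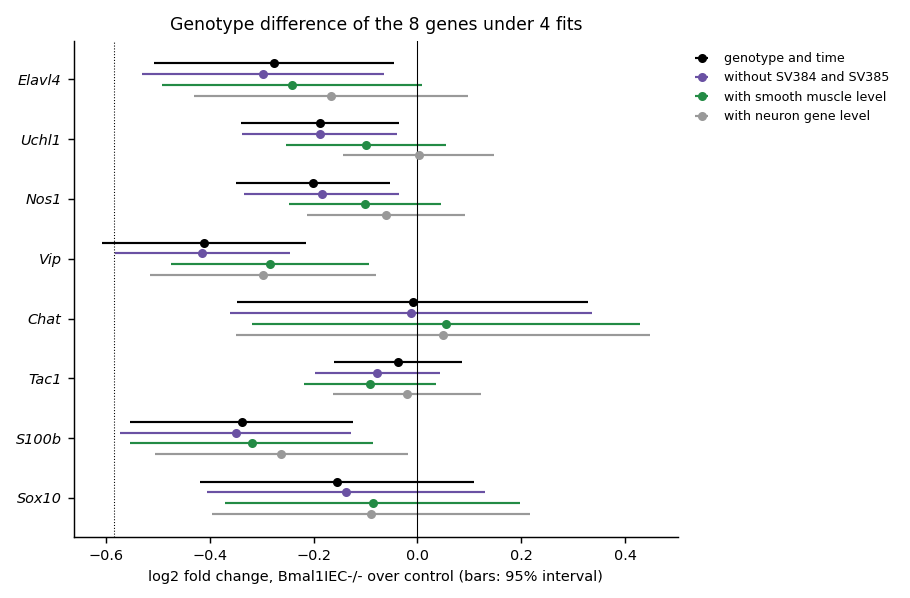
Log2 fold change of Bmal1IEC-/- over control mice (horizontal axis) for each of the 8 genes under 4 fits, as points with 95% intervals before adjustment; the dotted line marks a fold of 1.5 lower. With genotype and time in the fit *Vip* lies farthest below 0, at -0.41. With the muscle level added *Vip* is at -0.28 and *S100b* at -0.32. With the neuron level added *Vip* is at -0.30.

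At single circadian times 4 mice stood against 4, and 0 of 48 tests of a gene at a time passed, in edgeR as in DESeq2, while 3 had an unadjusted p under 0.05 in edgeR. Of all genes, 24.4% passed at CT1, 0.363% at CT5, 1.43% at CT9, 3.48% at CT13, 0.869% at CT17 and 0.349% at CT21. The log2 fold change was below 0 in 40 of the 48, at 6 of 6 times for *Elavl4*, *Uchl1*, *Nos1*, *Vip* and *S100b*, at 4 for *Tac1* and at 3 for *Chat* and *Sox10*.

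*Vip* at CT1 was 94.7, 88.5, 148 and 92.3 CPM in the control mice and 122, 28.9, 71.9 and 63.2 CPM in the Bmal1IEC-/- mice. The highest of the latter was SV384 and the lowest SV385, and the groups overlapped through SV384. At CT5 it was 88.4, 108, 112 and 92.1 CPM against 82.4, 68.8, 75.5 and 71.7 CPM, with no overlap. At CT9 it was 124, 79.5, 80.8 and 65.5 CPM against 90.8, 68.1, 80.4 and 44.5 CPM, with overlap. At CT13 it was 89.2, 86.5, 83.6 and 107 CPM against 39.0, 81.6, 71.2 and 79.1 CPM, again with no overlap. How many of all genes separated so at CT5 and CT13 was not counted.

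At CT17 the *Vip* values were 130.3, 119, 100.02 and 88.9 CPM in control and 103, 54.5, 83.5 and 67.0 CPM in Bmal1IEC-/- mice, and at CT21 they were 86.1, 104, 127 and 105 CPM against 98.3, 78.8, 93.1 and 88.4 CPM, with overlap at both times. From CT1 to CT21 the log2 fold changes were -0.57, -0.42, -0.30, -0.44, -0.51 and -0.23, with a standard error of 0.26 each. The CT1 value was -0.66 over the 46 mice, -0.31 without SV385, -0.35 without the control mouse SV468, and -0.93 without SV384, when it passed. With no filter on low counts *Vip* passed at CT1, CT5, CT13 and CT17 in edgeR, with nearly unchanged log2 fold changes (-0.57, -0.43, -0.43 and -0.51). With the filter its unadjusted p at these times was 0.0357, 0.110, 0.101 and 0.0573 in edgeR, so these calls depend on the filter. The standard errors without the filter are not given here, and why the calls changed was not tested. The shares of all genes given above belong to the filtered fit. Those of the unfiltered fit were not compared.

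*S100b* differed most at CT21, where the control mice had 6.07, 3.87, 5.96 and 3.64 CPM and the Bmal1IEC-/- mice 3.19, 3.38, 3.15 and 2.67 CPM. All 4 control mice were above all 4 Bmal1IEC-/- mice, but how many of all genes separated so at CT21 was not counted. The log2 fold change was -0.65 (SE 0.27, adjusted p = 0.580, edgeR) and did not pass. From CT1 to CT17 it was -0.09, -0.50, -0.22, -0.23 and -0.29.

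Over the day, *Sox10* was the 1 gene of the 8 called rhythmic in control mice, and 0 of 8 were called in Bmal1IEC-/- mice. JTK_cycle, a rank test for a 24-h rhythm, called 49.7% of all genes in control and 29.2% in Bmal1IEC-/- mice. In the control mice *Sox10* was 3.67, 2.25, 4.27 and 1.71 CPM at CT1, 3.95, 6.04, 2.22 and 2.79 CPM at CT5, and 5.63, 6.33, 3.87 and 6.32 CPM at CT9. It reached 5.47, 6.70, 7.84 and 6.74 CPM at CT13, where all 4 mice were above all 4 mice of CT1 and of CT21. Such a separation was not counted over all genes. *Sox10* then stood at 6.65, 3.57, 5.67 and 4.29 CPM at CT17 and at 3.60, 4.10, 1.24 and 3.90 CPM at CT21. The mean thus went from 2.97 ± 1.2 CPM (SD, n = 4) at CT1 to 6.69 ± 0.970 CPM (SD, n = 4) at CT13. The JTK_cycle p over 12 phases was 0.00119 from its exact null (q = 0.00549 over all genes), with a peak at 12 h and a relative amplitude of 41.1%, where the median of all genes was 13.7%. With each control mouse left out in turn this exact p ran from 0.000474 to 0.00449.

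In the Bmal1IEC-/- mice *Sox10* means ran only from 3.48 ± 1.22 CPM (SD, n = 4) at CT1 to 4.43 ± 1.07 CPM (SD, n = 4) at CT9, with a relative amplitude of 11.4%, near the median of 11.3% over all genes. A 24-h cosine in edgeR passed for *Sox10* in control mice (adjusted p = 0.000511), as for 44.7% of all genes, and for 0 of 8 genes in Bmal1IEC-/- mice, as for 27.3% of all genes. Any difference between the 6 times passed for *Sox10* in control mice (adjusted p = 0.0121, edgeR), as for 40.0% of all genes, and for 0 of 8 in Bmal1IEC-/- mice, as for 28.1%. In each of these tests 0 of 8 genes had an unadjusted p under 0.05 in Bmal1IEC-/- mice. The test of the difference in rhythm between genotypes called 0 of 8 genes in edgeR and in DESeq2, against 1.94% of all genes, and gave *Sox10* a p of 0.0582 (adjusted p = 0.352, edgeR). A difference of the *Sox10* rhythm between genotypes was therefore not shown.

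The other 7 genes had relative amplitudes in control mice between 4.72% (*Tac1*) and 15.8% (*Elavl4*). *Elavl4* and *Vip* had the smallest JTK_cycle p among them, 0.212 each. *Vip* passed in control mice only without SV401 (exact p = 0.0481) and *S100b* in Bmal1IEC-/- mice only without SV450 (exact p = 0.0234). As a ratio to the summed muscle level *Uchl1* passed in control mice too (exact p = 0.00685), and its level there was lowest at CT1, 15.5 ± 1.39 CPM (SD, n = 4), and highest at CT9, 23.4 ± 5.37 CPM (SD, n = 4).

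Between the circadian night (CT13, CT17 and CT21) and day (CT1, CT5 and CT9), 0 of 8 genes differed in control mice, where 35.8% of all genes did in edgeR, and 0 of 8 in Bmal1IEC-/- mice, where 11.3% did. No gene of the 8 had an unadjusted p under 0.05 in either genotype, and DESeq2 called 0 as well. The largest log2 differences in control mice were 0.27 for *Sox10* (SE 0.21, adjusted p = 0.319) and 0.20 for *Elavl4* (SE 0.17, adjusted p = 0.380). The split shows little of a 24-h rhythm that peaks near the turn from day to night or back. *Sox10* in control mice had its cosine peak there, at 12.4 h, with a relative amplitude of 41.1%. The split therefore cannot decide on rhythms of such a phase. The interaction of genotype and period passed for 0 of 8 genes in edgeR and DESeq2, against 0.116% of all genes, none of the 8 with an unadjusted p under 0.05, and was -0.24 for *Sox10* (SE 0.30) and -0.11 for *Tac1* (SE 0.13).

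The 8 genes varied unequally from mouse to mouse within a group. The biological coefficient of variation was 25.1% for *Vip*, 24.5% for *Chat*, 23.0% for *Elavl4* and 20.9% for *Sox10*, and 10.9% for *Tac1*, where the median of all genes was 13.2%. Over the deviations of 48 mice from their 12 group means on the log2 scale, 23 of the 28 pairs of genes had a Pearson's r above 0, with a median of 0.11 and a range from -0.16 to 0.50. After adjustment over 28 pairs 1 passed, *Uchl1* with *Nos1* (r = 0.50, permutation p = 0.00077, adjusted p = 0.0216; rho = 0.47, permutation p = 0.00202, adjusted p = 0.0566). Its r was 0.53 without the 2 mice farthest from the median, and it no longer passed without SV385 (r = 0.46), SV418 (r = 0.44) or SV481 (r = 0.45).

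*Nos1* and *Uchl1* also followed the smooth muscle level from mouse to mouse. For *Nos1* r was 0.46 (permutation p = 0.00043, adjusted p = 0.00344 over 8 genes) and rho 0.58 (permutation p = 0.00053, adjusted p = 0.00424). For *Uchl1* r was 0.57 (permutation p = 0.00121, adjusted p = 0.00484) and rho 0.47 (permutation p = 0.00255, adjusted p = 0.0102). Without the 2 mice farthest from the median muscle level r was 0.51 for *Nos1* and 0.47 for *Uchl1*. *Vip* had r = 0.53 and rho = 0.27, neither of which passed (permutation p = 0.0836 and 0.115, adjusted p = 0.167 and 0.230). Its r rested on SV385, without which it was 0.10, and it was 0.27 without the 2 mice farthest from the median. *Sox10* had r = 0.31 and rho = 0.37 (permutation p = 0.0311 and 0.0204, adjusted p = 0.0830 and 0.0545), and its r passed without any 1 of SV384, SV385, SV437, SV444 and SV445. The r of *Tac1* was -0.21, of *Chat* 0.19, of *S100b* 0.17 and of *Elavl4* 0.16, and these 4 did not pass.

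**Figure D3:**
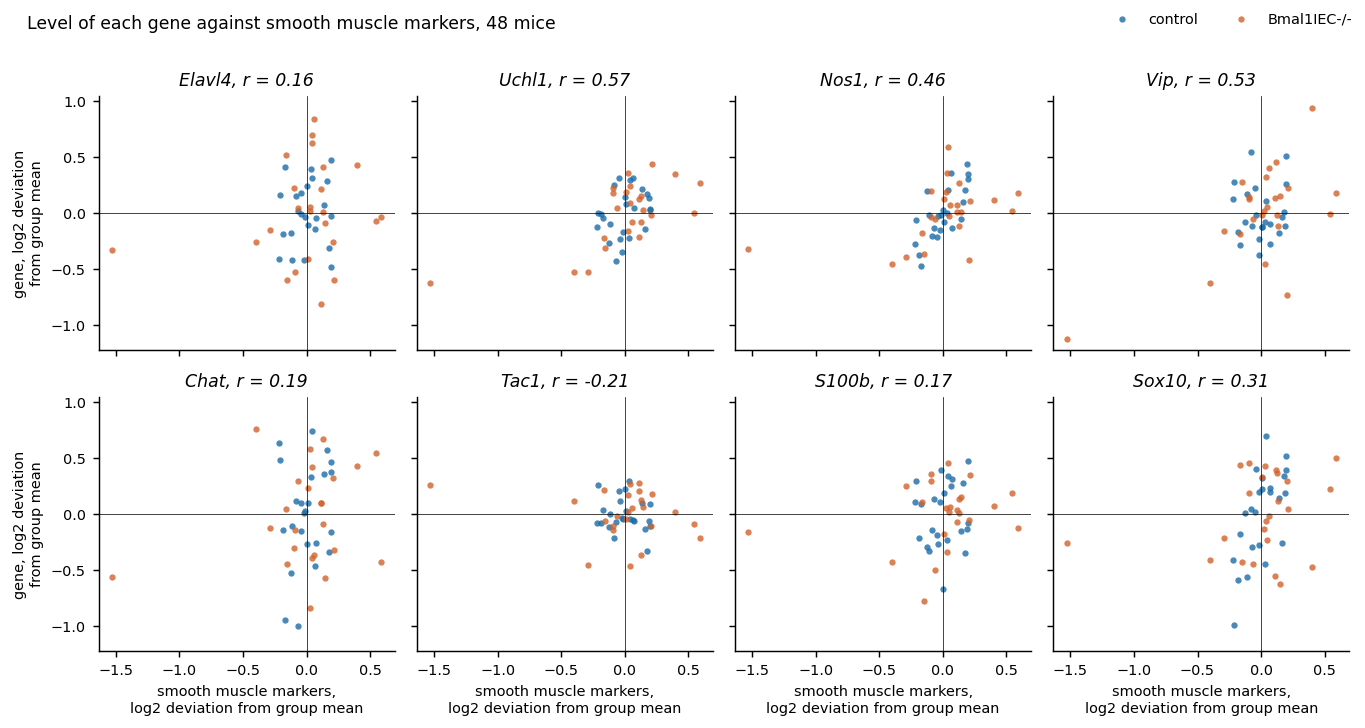
Deviation of each gene from its group mean (vertical axes, log2 CPM) against that of the summed smooth muscle markers (horizontal axes, log2), 1 point for each of 48 mice, blue for control and orange for Bmal1IEC-/- mice. The point far to the left is SV385, and without it r is 0.10 for *Vip*.

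The genes whose deviations were most like those of each of the 8 over 48 mice, by Pearson's r among all genes tested, are given as a description, since all points share library depth and the makeup of the piece of colon. The 3 nearest to *Uchl1* were *Grik5* (r = 0.77), *Calb2* (r = 0.72) and *Bcam* (r = 0.72). Those nearest to *Vip* were *Fmo2* (r = 0.78), *Crispld2* (r = 0.75) and *F13a1* (r = 0.73), and those nearest to *Nos1* were *Bahcc1* (r = 0.71), *Sall1* (r = 0.65) and *Rab6b* (r = 0.64). For the other 5 genes the highest r was 0.58. The nearest were *Ppp1r13l* (r = 0.56), *Syt4* (r = 0.55) and *Hsf2* (r = 0.54) for *Elavl4*, and *Smarcb1* (r = 0.58), *Haus8* (r = 0.58) and *Bud13* (r = 0.58) for *Sox10*. For *S100b* they were *Abhd12* (r = 0.53), *Cd302* (r = 0.53) and *Klhl25* (r = 0.52), for *Chat* *Col5a3* (r = 0.57), *Eppk1* (r = 0.54) and *Ogdhl* (r = 0.52), and for *Tac1* *Jmjd4* (r = 0.53), *Bhmt* (r = 0.51) and *Cops3* (r = 0.51).

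Further genes of the enteric nervous system are set beside the 11.7% of all genes that passed for genotype and the 5.42% that passed as lower. Of 16 further neuron genes listed, 15 were tested, 13 had a log2 fold change below 0 and the median was -0.12, beside 0.00061 over all genes. An unadjusted p under 0.05 was found for 6 of them in edgeR. The 1 that passed was *Ret*, the receptor for glial cell line-derived neurotrophic factor, which fell by 0.20 (SE 0.06, adjusted p = 0.0291, edgeR) from 21.4 ± 2.72 to 18.7 ± 3.20 CPM (SD, n = 24 each). Of 15 other transmitter genes 11 were tested and 7 were below 0, with a median of -0.13, and 5 had an unadjusted p under 0.05 in either direction. Here *Calcb*, which encodes a calcitonin gene-related peptide, rose by 0.59 (SE 0.19, adjusted p = 0.0298, edgeR) from 1.64 ± 0.718 to 2.50 ± 1.23 CPM (SD, n = 24 each), and did not pass over the 46 mice (adjusted p = 0.0622), where *Gal*, which encodes galanin and was named after its value was seen, passed as lower.

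Of 12 further glial genes 8 were tested and 7 were below 0, with a median of -0.12, and 2 had an unadjusted p under 0.05 in edgeR. *Erbb3*, named after its value was seen, stood at 422 ± 111 CPM in control mice (SD, n = 24). Control means of the other tested genes of this list ran from 5.87 to 40.2 CPM. How far the list reads glia alone was not tested. *Ednrb*, the endothelin receptor of neural crest cells, fell by 0.26 (SE 0.07, adjusted p = 0.00839, edgeR) from 29.5 ± 3.94 to 24.8 ± 5.70 CPM (SD, n = 24 each). *Gfap*, the glial filament gene, had -0.03 (adjusted p = 0.884, edgeR) and was named here after its value was seen. *Foxd3* was at 0 counts in all 48 mice, where a count of 0 allows up to 3 in each.

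On the receiving side all 11 receptors and effectors were tested and 11 of 11 were below 0, with a median of -0.19. Of these, 4 had an unadjusted p under 0.05 in edgeR. The 2 that passed were the subunits of soluble guanylyl cyclase, through which nitric oxide acts on muscle. *Gucy1a1* fell by 0.27 (SE 0.07, adjusted p = 0.0111, edgeR) from 53.0 ± 11.2 to 43.7 ± 10.2 CPM (SD, n = 24 each), and *Gucy1b1* by 0.23 (SE 0.07, adjusted p = 0.0292). The receptors of vasoactive intestinal peptide, named after their values were seen, had -0.04 for *Vipr1* (adjusted p = 0.527) and -0.16 for *Vipr2* (adjusted p = 0.222). Of 6 neurotrophic signals 5 were tested, 5 were below 0 and 0 passed, 2 with an unadjusted p under 0.05, and the co-receptors *Gfra2* and *Gfra1* had the largest values at -0.29 and -0.19 (adjusted p = 0.0776 and 0.0893).

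All 3 genes of interstitial cells of Cajal, the pacemaker cells beside the neurons, were below 0, with a median of -0.19. Each of the 3 had an unadjusted p under 0.05 in edgeR, and 1 passed. This was *Ano1*, their chloride channel, which fell by 0.34 (SE 0.07, adjusted p = 0.000245, edgeR) from 101 ± 13.3 to 80.1 ± 17.3 CPM (SD, n = 24 each). With the muscle level as covariate *Ano1* still passed, at -0.23 (adjusted p = 0.00706). *Ret* then had -0.17 (SE 0.07, adjusted p = 0.132) and *Ednrb* -0.17 (SE 0.07, adjusted p = 0.141), so that neither passed. *Gucy1a1* had -0.11 (adjusted p = 0.292) and *Gucy1b1* -0.11 (adjusted p = 0.397). Without CT1, *Ano1* (adjusted p = 0.00193) and *Gucy1a1* (adjusted p = 0.0350) passed, and *Ret*, *Ednrb*, *Gucy1b1* and *Calcb* did not (adjusted p = 0.168, 0.0580, 0.136 and 0.122). Over the 46 mice with the muscle covariate *Ednrb* passed (adjusted p = 0.0324).

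**Figure D4:**
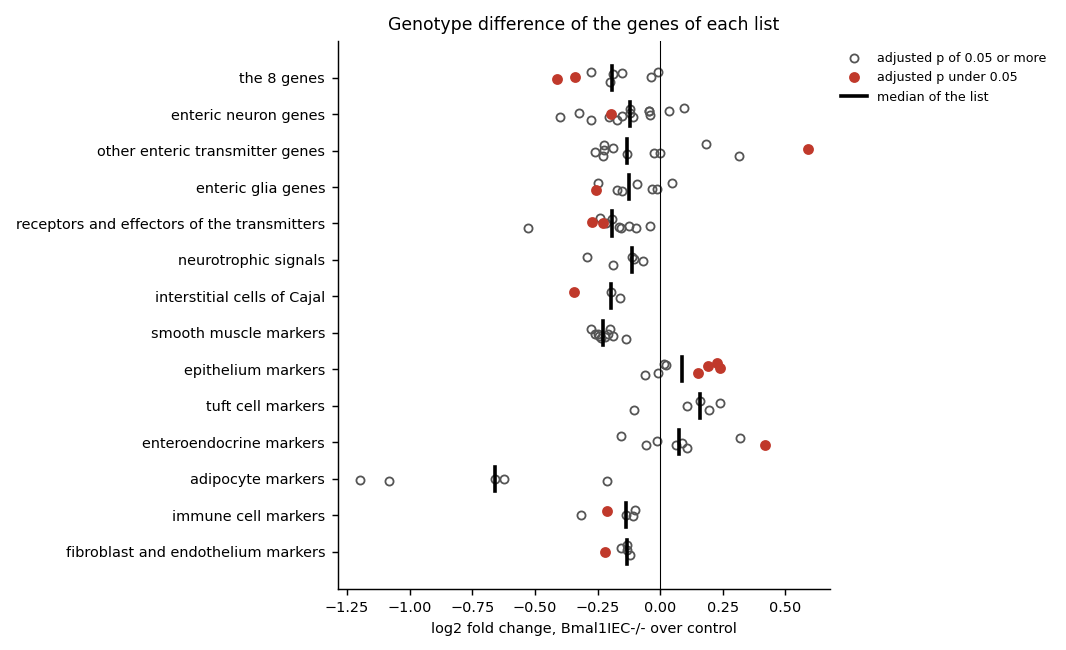
Log2 fold change of Bmal1IEC-/- over control mice (horizontal axis) for each tested gene of the 8 and of 13 lists, filled red where the adjusted p was under 0.05, with a bar at the median of each list. The medians of the neuron, glia, receptor, smooth muscle, immune, and fibroblast and endothelium lists lie between -0.23 and -0.12. The adipocyte list has the lowest median, at -0.66. Those of epithelium, tuft and enteroendocrine cells lie between 0.08 and 0.16.

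Markers of other cells in the piece of colon were compared between genotypes too, and their part in the results above was not tested beyond the muscle and neuron covariates. Smooth muscle markers had 10 of 10 below 0 with a median of -0.23, and 0 of 10 passed in edgeR, 9 with an unadjusted p under 0.05 and 1 in DESeq2. *Cnn1* at -0.28 (adjusted p = 0.0539) and *Myocd* at -0.26 (adjusted p = 0.160) were the largest, and 3 passed over the 46 mice. Of 8 epithelium markers 4 rose, *Lgals4*, *Cdh1*, *Krt8* and *Krt19*, by 0.19, 0.15, 0.23 and 0.24 (adjusted p from 8.23e-05 to 0.0478, edgeR). Over the 46 mice 2 of these passed as higher, without *Krt8* (adjusted p = 0.0507) and *Krt19* (adjusted p = 0.131), and *Epcam*, named after its value was seen, passed as lower. With the muscle covariate 1 passed as higher, *Lgals4*, and 1 as lower, *Epcam*. The summed level of the 8 ran from 8165 to 11632 CPM in control and from 9522 to 15578 CPM in Bmal1IEC-/- mice.

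Some of the 8 genes are known from other cell types too, *Chat* from tuft cells, *Tac1* from enteroendocrine cells and *S100b* from adipocytes. Of 5 tuft cell markers 0 passed in edgeR, 0 with an unadjusted p under 0.05, with *Pou2f3* at 0.24 and *Sh2d6* at 0.20, and the sum ran from 57.6 to 105 CPM in control and from 55.2 to 106 CPM in Bmal1IEC-/- mice. Of 8 enteroendocrine markers *Chgb*, a granin of hormone granules, rose by 0.42 (adjusted p = 6.58e-08, edgeR), and the sum ran from 964 to 1481 CPM in control and from 1154 to 1989.7 CPM in Bmal1IEC-/- mice. All 5 adipocyte markers were below 0 with a median of -0.66, among them *Adipoq* at -1.20 (adjusted p = 0.170) and *Plin1* at -1.08 (adjusted p = 0.190). Of these 5, 0 passed in edgeR, 4 with an unadjusted p under 0.05 and 1 in DESeq2, and their sum spread from 25.2 to 306 CPM in control and from 24.4 to 262 CPM in Bmal1IEC-/- mice. None of the tuft, enteroendocrine and adipocyte markers was at 0 in all mice.

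All 5 tested immune cell markers were below 0, with a median of -0.13. Among them *Ptprc* passed and fell by 0.21 (adjusted p = 0.0356, edgeR). The sums ran from 83.1 to 143 CPM in control and from 35.5 to 137 CPM in Bmal1IEC-/- mice. All 5 fibroblast and endothelium markers were below 0 too, with a median of -0.13. Here *Pecam1* passed and fell by 0.22 (adjusted p = 0.0239, edgeR), with sums from 506 to 1001 CPM and from 281 to 1084 CPM. With the muscle covariate *Ptprc* had -0.15 (adjusted p = 0.230) and *Pecam1* -0.09 (adjusted p = 0.416), and without CT1 their adjusted p was 0.0535 and 0.200. In both lists SV385 held the lowest sum, at 35.5 and 281 CPM.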

How the data were processed

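Colon RNA of 48 mice was sequenced from stranded mRNA libraries. The authors trimmed the reads (Trimmomatic 0.39), aligned them to mm10 (STAR 2.7.5c) and counted uniquely assigned exon reads of mapping quality 4 or more per gene (featureCounts 1.4.6), and deposited raw counts, per the labels and methods. Annotation release and strand setting are not given in the sources used here. Symbols came from GENCODE vM21 by Ensembl identifier. Groups came from genotype and time in the labels, which give no batch, and each library was a separate mouse. The chi-square per gene between replicates was 1.93 or more in all 72 pairs, so all 48 were kept as separate samples.

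Counts were tested in edgeR 4.0.16 (R 4.3.3) with TMM factors, filterByExpr by the 12 groups and the quasi-likelihood F test, with circadian time as a factor, over 14618 genes with Benjamini-Hochberg adjustment and a threshold of 0.05. JTK_cycle (own code with an exact null distribution, 12 phases 2 h apart, period 24 h) called rhythms at a p of 0.05 after adjustment over phases. Correlations used 100000 permutations within groups. Depth limits genes of few counts. Scripts were tested on simulated data. Alternatives were DESeq2 1.42.0, its size factors, no filter, left-out mice and times, and covariates.

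The text names the 8 genes and, of each list, those past the threshold (at most 4 in each direction) or else the 2 with the largest log2 fold change. It also names the 3 genes most like each of the 8, and *Arntl* and *Nr1d1* as a check of the labels. Core clock genes were a further list. The 8 genes, the lists and the tests were chosen with earlier results of these data known. The values of 1 listed gene are not reported here.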

Additional observations from a re-analysis of the deposited data

Results flagged for a closer look

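Of 108 groups of 4 mice examined for a single mouse far from the other 3 (the 8 genes and the summed smooth muscle level in each of 12 groups), 3 stood out, where chance gives about 5%. *Vip* in control mice at CT1 was 148 CPM in SV468 and 88.5 to 94.7 CPM in the other 3, and without this mouse the genotype difference of *Vip* was -0.37 on the log2 scale. *Tac1* in Bmal1IEC-/- mice at CT13 was 25.6 CPM in SV448 and 19.6 to 20.2 CPM in the other 3, and without it the log2 fold change of *Tac1* was -0.05. The summed smooth muscle level in Bmal1IEC-/- mice at CT1 was 964 CPM in SV385 and 3670.1 to 4189 CPM in the other 3.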

How the results depend on the processing

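The number of genes called for genotype, 2 in the report, was 1 with no filter on low counts, with no time term, without CT5, CT9, CT17 or CT21, and with the muscle covariate over the 46 mice. It was 0 with the muscle covariate, with the neuron covariate and in edgeR's glmTreat against a fold of 1.5, and from 1 to 3 with each mouse left out. Calls at single times were 4 with no filter, all of *Vip*, and 0 to 1 with a mouse left out. The share of all genes called with no filter was not compared. Rhythmic genes in control mice were 2 as a ratio to the muscle level and 1 to 2 with a mouse left out, and in Bmal1IEC-/- mice 0 to 1. Correlated pairs were 2 with group means not removed, 0 over the 46 mice and 0 to 2 with a mouse left out, and genes correlated with muscle 2 to 3.

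Directions turned for *Uchl1* (0.0022, neuron covariate), for *Sox10* (0.0028, muscle covariate over the 46 mice) and for *Chat*, at 0.055 with the muscle and 0.049 with the neuron covariate, 0.029 without CT5, 0.071 without CT13, and -0.062 to 0.047 with a mouse left out. *S100b* at CT1 was 0.067 with the muscle covariate and -0.28 to 0.11 with a mouse left out. The r of *Tac1* with muscle was 0.040 over the 46 mice and -0.31 to 0.023 with a mouse left out. Of the values that answer a comparison, 455 stayed within 1.5 times and 32 moved, and of single values 2473 were unmoved, 63 moved, 25 lost a call, 19 gained one and 30 turned direction. The causes were not tested. No paired analysis was possible because each library has its own animal number and no number is shared between groups. Low counts limit *Chat*, *S100b* and *Sox10*. The edgeR p-values rest on a spread estimated over all groups of a fit together, with 4 mice per group.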

Other observations

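JTK_cycle also gave counts of rhythmic genes for the lists around the neurons, described here without a test of the lists, beside 49.7% of all genes in control and 29.2% in Bmal1IEC-/- mice. Of 15 enteric neuron genes, 2 were rhythmic in control and 2 in Bmal1IEC-/- mice, and of 11 other transmitter genes 0 and 1. Of 8 glial genes 4 were rhythmic in control and 2 in Bmal1IEC-/- mice, and of 11 receptors and effectors 5 and 3. Smooth muscle markers had 4 of 10 rhythmic in control and 0 of 10 in Bmal1IEC-/- mice, and genes of interstitial cells of Cajal 2 of 3 and 0 of 3. Epithelium markers had 7 of 8 and 4 of 8. The core clock genes, most of which are rhythmic in many tissues, had 14 of 15 in control and 11 of 15 in Bmal1IEC-/- mice, and between genotypes 4 were higher, *Npas2*, *Cry1*, *Nfil3* and *Cry2*, and 7 lower. A call in one genotype and not in the other is no test of the difference.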
